A study of Homo sapiens with 6 samples.

Results

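Mucins are proteins whose serine- and threonine-rich stretches carry dense O-linked sugar chains, and the enzymes that build these chains are a family system of their own. The genes described here were chosen by name in the table of gene expression values: protein-coding genes whose symbols begin with MUC and a digit, GALNT and a digit, GALNTL, GCNT and a digit, B3GNT and a digit, or ST6GALNAC and a digit. This rule gave 57 genes out of 58735 in the table, of which 19951 were protein-coding: 17 MUC, 20 GALNT, 5 GCNT, 9 B3GNT and 6 ST6GALNAC genes. The rule used no measured value.

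In mucin-type O-glycosylation a GALNT enzyme of the Golgi first adds N-acetylgalactosamine (GalNAc) to serine or threonine. The chain is then built into a core structure: galactose gives core 1, a GCNT enzyme branches core 1 into core 2, and B3GNT6 makes core 3. B3GNT enzymes lengthen the arms, and ST6GALNAC enzymes add sialic acid to the inner GalNAc, which can stop further growth. Epithelial cells use membrane-bound mucins such as MUC1 as a surface coat and secreted mucins as gel, and altered mucins and shortened O-glycans are well known in carcinomas.

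RNA was sequenced from 6 human libraries labelled MB231 cells, a breast cancer line taken here as MDA-MB-231. There were 3 libraries labelled shNC with a wild-type genotype and 3 labelled shPAK5 with a PAK5 knockdown. PAK5 encodes a p21-activated kinase. The labels gave no treatment, time, clone or hairpin for either group or source of the replicates. If these were not grown separately, the p-values below cover technical spread alone.

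Expression was given as FPKM, that is, fragments scaled by gene length and library depth, which allows levels to be compared between genes per length. Between 15085168 and 18146091 reads lay behind the values of a library. PAK5 had 0 reads in all 6 libraries, so the knockdown could not be checked. shNC replicate 1 stood apart from the other shNC libraries: its pairs with them had a chi-square per degree of freedom of 10.4 and 5.90, against 2.40 to 3.44 for the other 4 pairs within groups. Its values for genes of low GC content also deviated differently. Among the tenth of genes with the lowest GC content the median deviation from the gene's mean was 0.06 in shNC replicate 1, -0.17 and -0.08 in shNC replicates 2 and 3, and 0.04 to 0.09 in the shPAK5 libraries, on the log2 scale.

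Of 10 genes that mark the labelled line as mesenchymal, 6 were at 1 FPKM or more in shNC, among them VIM at 149 ± 10.2 FPKM (SD, n = 3), while FN1 was at 0.0319 ± 0.0201 FPKM and COL6A2 and TWIST1 had no reads. EPCAM, low in mesenchymal cells, was at 109 ± 7.69 FPKM. Of 6 genes of gastrointestinal epithelium, CDH17 was at 537 ± 2.93, GPA33 at 75.7 ± 3.89, LGALS4 at 28.9 ± 0.493 and VIL1 at 6.37 ± 0.170 FPKM, while CDX2 was at 0.0426 ± 0.0243 FPKM and CDX1 had no reads. The luminal breast markers ESR1, PGR, GATA3 and FOXA1 summed to 1.96 to 2.43 FPKM in shNC and 2.15 to 2.40 in shPAK5. The marker genes of fibroblasts, leukocytes and endothelium summed to at most 0.268 FPKM per list in any library. The markers thus go partly against the label, and the cells are called by their label only.

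The mRNA of these families was concentrated in a few genes. In shNC, B3GNT3, MUC13 and MUC1 together made up 53.8% ± 0.546 (SD, n = 3) of the summed FPKM of all 57 genes, and 18 genes whose mean across all 6 libraries reached 1 FPKM made up 98.8% ± 0.220. These 18 were 31.6% of the 57, whereas 50.1% of all protein-coding genes reached that mean. Another 30 genes had reads but lay below it, and 9 had no read in any library. With 0 reads, up to 3 remain possible. Over the pooled shNC libraries that limit corresponded to 0.00978 to 0.0224 FPKM for these 9 genes, for counting error only.

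**Figure D1:**
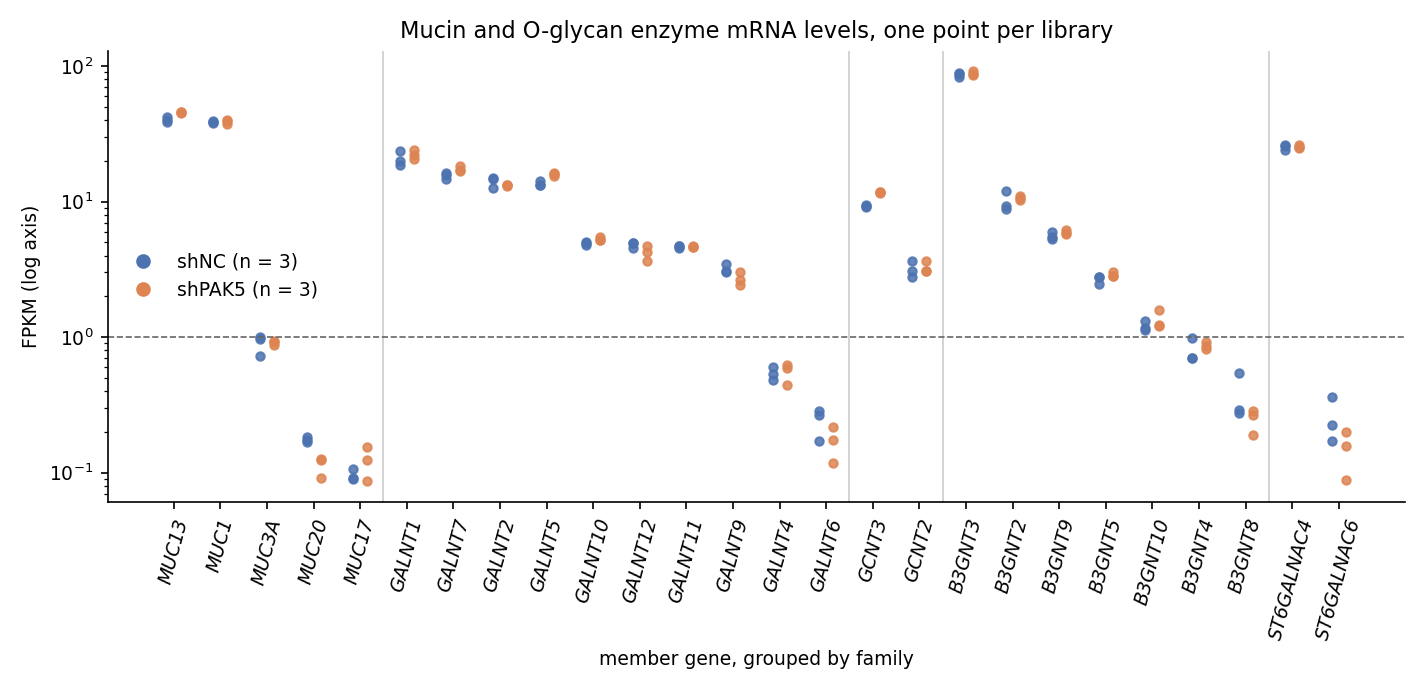
FPKM on a log axis for the 26 genes averaging 0.05 FPKM or more and reads in every library, grouped by family, with 1 point per library (3 shNC, 3 shPAK5). The dashed line marks 1 FPKM; B3GNT3, MUC13 and MUC1 lie highest, and ST6GALNAC4 is the only gene of its family above the line.

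Among the mucins, 2 membrane-bound genes carried 98.4% ± 0.175 of the MUC FPKM in shNC. MUC13, a cell-surface mucin known from the gastrointestinal tract, lies at chromosome 3, 124905442 to 124953819 (GRCh38, minus strand), and was at 42.4, 40.2 and 38.6 FPKM in shNC replicates 1 to 3. Its shPAK5 values were 45.1, 45.8 and 45.7 FPKM, all above the shNC values. MUC1, the widely expressed mucin of glandular epithelia with a signalling tail inside the cell, lies at chromosome 1, 155185824 to 155192916, minus strand. It was at 39.4, 37.8 and 38.7 FPKM in shNC and at 40.3, 39.4 and 37.7 FPKM in shPAK5, and the groups overlapped. In shNC MUC1 lay above 94.7% of protein-coding genes and MUC13 slightly higher, and their levels within shNC overlapped.

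The other membrane-bound mucins were low. MUC3A, an intestinal surface mucin, was at 0.897 ± 0.152 FPKM in shNC and 0.908 ± 0.0313 in shPAK5 (SD, n = 3), from 521 and 519 reads over each group. MUC20 was at 0.175 ± 0.00645 and 0.114 ± 0.0197 FPKM, from 38 and 24 reads. It shares 42.8% of its exonic bases with MUC20-OT1 on the same strand, so its reads cannot be assigned with certainty. MUC17 was at 0.0956 ± 0.00924 and 0.122 ± 0.0339 FPKM. MUC16, the carrier of the ovarian cancer antigen CA125, had 62 and 55 reads over shNC and shPAK5, MUC12 had 21 and 7, MUC4 had 1 and 0, MUC21 had 0 and 1, and MUC15 and MUC22 had none.

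The secreted mucins were near the limit of detection. The gel-forming mucins MUC2 of the intestine, MUC5AC and MUC6 of the stomach and MUC5B of the airways had 1, 16, 0 and 26 reads over the 3 shNC libraries, and 4, 24, 1 and 12 reads over the 3 shPAK5 libraries. MUC19 had 1 and 5 reads, and the small salivary mucin MUC7 had none. Mucin genes hold long tandem repeats, and whether reads that map to more than 1 place were counted is not given in the sources used here.

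Of the 20 initiating GalNAc transferases, 8 were at 1 FPKM or more. GALNT1, GALNT7, GALNT2 and GALNT5 made up 77.7% ± 1.07 of the GALNT FPKM in shNC and 79.6% ± 0.480 in shPAK5 (SD, n = 3). GALNT1 and GALNT2 are broadly expressed and act on peptides that carry no sugar yet. GALNT1, on chromosome 18 from 35581117 to 35711834, was at 23.5, 18.8 and 19.9 FPKM in shNC and at 23.9, 22.3 and 20.7 in shPAK5. The high shNC value was that of replicate 1, and the groups overlapped. GALNT2, on chromosome 1 from 230057990 to 230282124, was at 12.6, 14.97 and 14.7 FPKM in shNC and at 13.2, 13.1 and 13.4 in shPAK5. Here replicate 1 was the lowest of the shNC libraries, below all shPAK5 values.

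GALNT7 prefers peptides that already carry GalNAc. It lies on chromosome 4 from 173168753 to 173323967 and was at 16.2, 14.8 and 15.6 FPKM in shNC and at 18.2, 16.7 and 17.1 in shPAK5, without overlap. GALNT5, on chromosome 2 from 157257598 to 157314211, was at 13.2, 13.3 and 14.2 FPKM in shNC and at 16.3, 15.6 and 16.0 in shPAK5. All its shPAK5 values lay above the shNC values. GALNT10, another enzyme that prefers glycopeptides, was at 4.93, 5.05 and 4.76 FPKM in shNC and at 5.20, 5.25 and 5.52 in shPAK5, again without overlap but with a smaller gap.

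Lower in the family were GALNT12, at 4.83 ± 0.234 FPKM in shNC and 4.19 ± 0.541 in shPAK5, and GALNT11, which can glycosylate NOTCH1, at 4.65 ± 0.103 and 4.67 ± 0.0250 (SD, n = 3). Antisense or other exons overlap 21.1% of the exonic bases of GALNT12 and 13.3% of those of GALNT2, so part of their reads is uncertain too. GALNT9, known mainly from brain, was at 3.18 ± 0.236 and 2.71 ± 0.306 FPKM. In shNC the values of GALNT12 overlapped those of GALNT10 and of GALNT11. GALNT4 was at 0.539 ± 0.0578 and 0.552 ± 0.0965 FPKM, but 93.2% of its exonic bases belong also to the readthrough gene POC1B-GALNT4 on the same strand. GALNT6, a gene often raised in breast carcinoma, was at 0.241 ± 0.0619 and 0.169 ± 0.05004 FPKM. GALNT3, which protects FGF23 from cleavage, had 3 reads in shNC and 2 in shPAK5. GALNT8, GALNT13, GALNT16, GALNT17, GALNT18 and GALNTL6 had 1 or 2 reads in all, and GALNT14, GALNT15 and GALNTL5 had none. Of the exonic bases of GALNT8, 62.7% are shared with other genes, such as KCNA6 on the same strand, so its low count is uncertain.

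**Figure D2:**
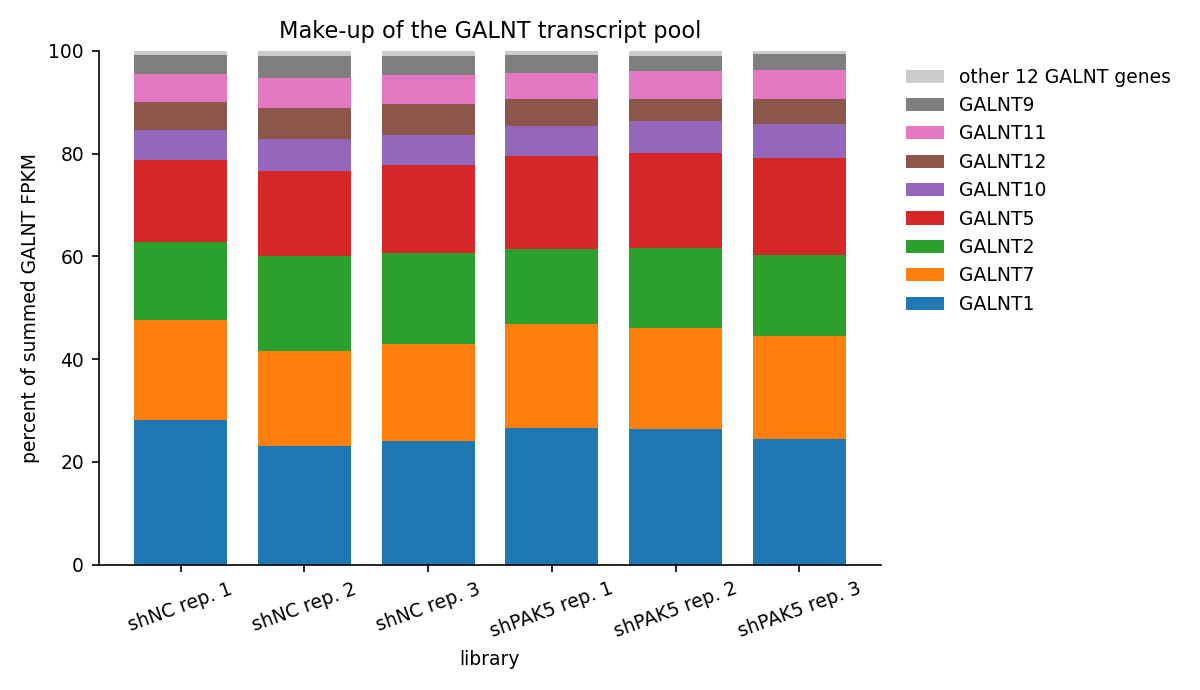
Share of each GALNT gene in the summed GALNT FPKM (percent, stacked bars) in each of the 6 libraries. The shares of GALNT1 run from 23.2 to 28.2%, with the highest in shNC replicate 1, and those of GALNT5 from 15.9 to 17.1% in shNC and from 18.1 to 18.8% in shPAK5.

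Branching rested on GCNT3 and GCNT2. GCNT3 makes the core 2 branch and also core 4 in mucin-secreting epithelia. It lies on the plus strand of chromosome 15 from 59594875 to 59640239 and was at 9.07, 9.31 and 9.501 FPKM in shNC and at 11.6, 11.7 and 11.8 in shPAK5. The lowest shPAK5 value lay well above the highest shNC value, and both groups were tight, with 9.29 ± 0.217 and 11.7 ± 0.0974 FPKM (SD, n = 3) from 3067 and 3805 reads. The ratio of the means was 1.26. GCNT2, which makes the I-branches of blood-group antigens, was at 3.16 ± 0.426 and 3.26 ± 0.327 FPKM. GCNT1, the core 2 enzyme of leukocytes and many other cells, had only 11 and 15 reads, GCNT7 had 14 and 5, and GCNT4, the third core 2 enzyme, had none. GCNT3 was thus the only one of the 3 core 2 enzymes above 1 FPKM.

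Extension was led by B3GNT3, which adds N-acetylglucosamine to core 1 and lets that arm grow. B3GNT3 lies on chromosome 19 from 17794828 to 17813082 and was at 82.7, 89.3 and 87.9 FPKM in shNC and at 86.2, 88.1 and 91.8 in shPAK5, with overlap. It was the most abundant of the 57 genes in every library, above 98.1% of protein-coding genes in shNC. B3GNT2, the main enzyme of poly-N-acetyllactosamine chains, was at 11.96, 8.77 and 9.25 FPKM in shNC and at 10.9, 10.2 and 10.6 in shPAK5, and the highest value was again shNC replicate 1.

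B3GNT9 was at 5.49, 5.31 and 5.95 FPKM in shNC and at 5.72, 6.22 and 5.91 in shPAK5, and the groups overlapped. B3GNT5, which starts lacto-series glycolipids rather than mucin chains, was at 2.69 ± 0.189 and 2.90 ± 0.127 FPKM (SD, n = 3), with all shPAK5 values above all shNC values by a small margin, the lowest at 2.82 and the highest at 2.801 FPKM. B3GNT10 was at 1.21 ± 0.0946 and 1.34 ± 0.212 FPKM, B3GNT4 at 0.796 ± 0.158 and 0.864 ± 0.0545, and B3GNT8, a partner that activates B3GNT2, at 0.368 ± 0.150 and 0.246 ± 0.0497. Part of the reads of B3GNT9, B3GNT5, B3GNT10, B3GNT4 and B3GNT8 is uncertain without strand information. Of their exonic bases, 14.9, 16.2, 16.1, 20.7 and 18.4% lie opposite other genes' exons. B3GNT7, an enzyme of keratan sulfate, had 2 reads in all. B3GNT6, the core 3 enzyme of normal colon, had none.

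Most of the FPKM of the genes that sialylate the inner GalNAc came from 1 gene. ST6GALNAC4, which adds sialic acid to an already sialylated core 1, lies on chromosome 9 from 127907886 to 127917038 and was at 24.1, 26.2 and 25.8 FPKM in shNC and at 24.95, 25.2 and 26.1 in shPAK5. It made up 98.8% ± 0.294 of the FPKM of its family in shNC (SD, n = 3). ST6GALNAC1, which makes the sialyl-Tn antigen, had 1 read in shNC and 4 in shPAK5, and ST6GALNAC2 had 9 and 4. For ST6GALNAC2, 57.2% of the exonic bases are shared with other genes, such as AC015802.6 on the same strand. Its low count is therefore uncertain. ST6GALNAC6, mainly an enzyme of glycolipids, was at 0.252 ± 0.0964 and 0.148 ± 0.0569 FPKM, with 47.0% of its exonic bases shared with AL157935.2 on the same strand. ST6GALNAC3 had 1 read and ST6GALNAC5 none.

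The libraries labelled shPAK5 were then compared with those labelled shNC. The differences were small, and none of the 18 tested genes passed. GCNT3, GALNT5, MUC13 and GALNT7 were higher in shPAK5, at ratios of mean FPKM of 1.26, 1.17, 1.13 and 1.12. GALNT9 and GALNT12 were lower, at ratios of 0.852 and 0.868, with overlapping groups. Of the 3 most abundant genes, MUC13 is among those above, B3GNT3 had a ratio of 1.02, and MUC1 had means of 38.6 and 39.2 FPKM. Summed over all 57 genes, the level was 308 ± 0.594 FPKM in shNC and 324 ± 1.58 in shPAK5 (SD, n = 3), and the groups did not overlap. Of single tested genes, 12.6% had every shPAK5 library above every shNC library. The mean sums were 80.3 and 85.9 FPKM for MUC, 82.3 and 86.5 for GALNT, and 12.6 and 15.1 for GCNT. Those of B3GNT were 107 and 111 FPKM, and those of ST6GALNAC 25.7 and 25.6. These sums were not corrected for GC content. In such bulk samples a difference in the share of cells that express a gene and a difference in RNA per cell cannot be told apart.

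**Figure D3:**
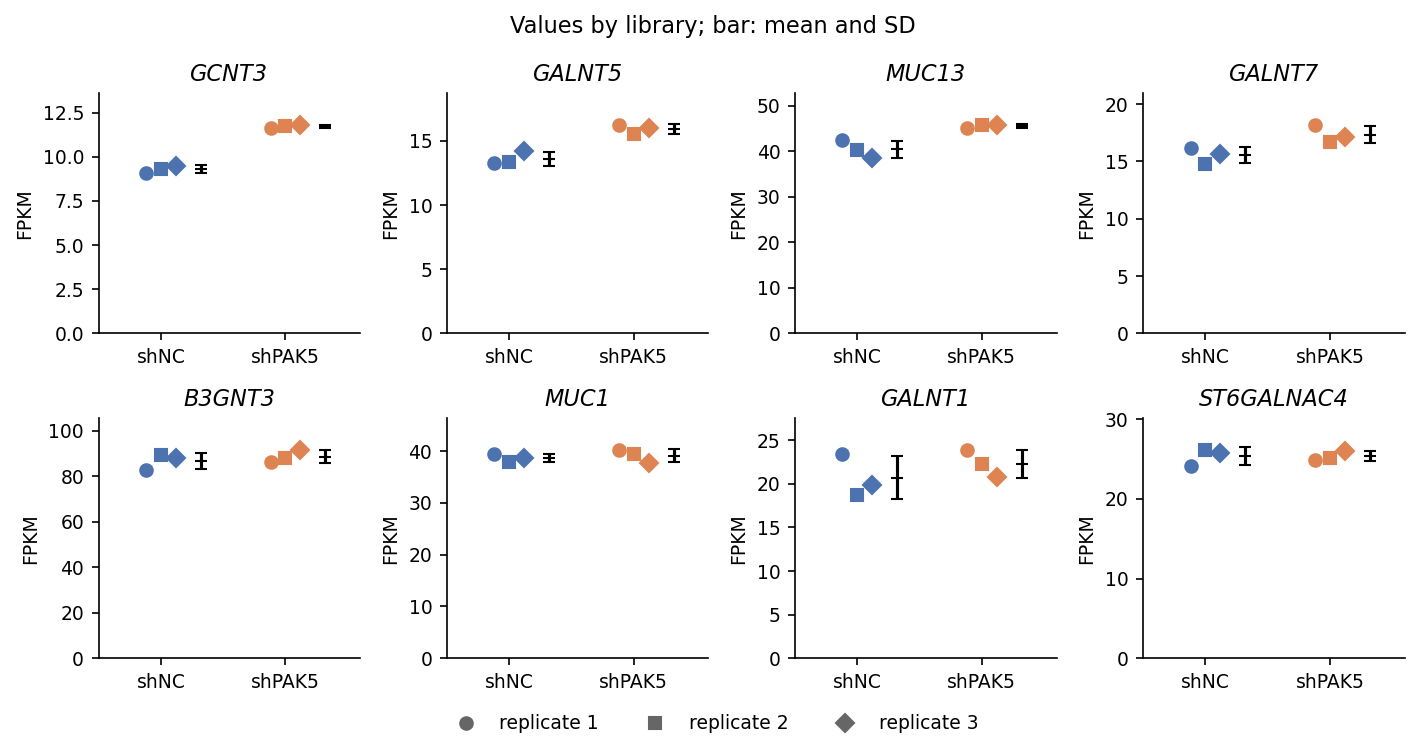
FPKM in each library for 8 genes (circle, square and diamond for replicates 1, 2 and 3), with the mean and SD of each group beside the points. In the upper row (GCNT3, GALNT5, MUC13, GALNT7) all shPAK5 points lie above all shNC points; in the lower row (B3GNT3, MUC1, GALNT1, ST6GALNAC4) the groups overlap.

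These differences were tested with limma on log2(FPKM + 1) over all 11237 genes averaging 1 FPKM or more, with Benjamini-Hochberg adjustment over all of them at 0.05. Of the 18 members 0 passed, and 0.116% of all tested genes did (0.089% higher in shPAK5). At an unadjusted p under 0.05 the count was 4 of 18 members, against 17.0% of all tested genes. limma-voom on reads recovered from the FPKM steps called 1 member, GCNT3, as higher, where it called 1.12% of all genes (0.863% higher). Of the 18, 15 had a positive change, against 51.3% of all tested genes. Their median change was 0.08 on the log2(FPKM + 1) scale, and that of all tested genes was 0.00377. The members' median was 0.04 without shNC replicate 2, 0.12 in limma-voom without shNC replicate 1, and 0.05 with a correction for GC content, under which 11 of the 18 changes were positive. In 6 of the 18 every shPAK5 library lay above every shNC library (GCNT3, GALNT5, MUC13, GALNT7, GALNT10 and B3GNT5), which was so for 12.6% of all tested genes. In none of the 18 did every shPAK5 library lie below, against 10.5% (23.1% for either direction). Among the untested members, MUC20 and MUC12 had every shPAK5 library below every shNC library. They rest on 38 and 24 reads and on 21 and 7 reads in shNC and shPAK5. The share of such genes below 1 FPKM was not computed.

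GCNT3 came closest to the threshold. Its change was 0.31 ± 0.04 (SE) on the log2(FPKM + 1) scale, with a limma adjusted p of 0.0657 over 11237 genes, a 95% interval from 0.20 to 0.41 and shPAK5 higher in 3 of 3 libraries. In limma-voom the adjusted p was 0.0138. It also passed in limma among genes averaging 5 FPKM or more (adjusted p = 0.0401, where 0.47% of genes passed, 0.288% as higher), with a correction for GC content chosen after seeing the data (adjusted p = 0.0377, where 0.507% passed, 0.392% as higher) and without shNC replicate 1 (adjusted p = 0.0312). Without any of the other 5 libraries it did not pass.

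GALNT5 changed by 0.22 ± 0.05 (SE) on the same scale (limma adjusted p = 0.158), MUC13 by 0.17 ± 0.05 (adjusted p = 0.190) and GALNT7 by 0.15 ± 0.05 (adjusted p = 0.236). These values moved with GC content and with 1 library. The transcripts of GALNT5 and GALNT7 have a GC content of 40.1 and 39.8%, and those of GCNT3 of 47.1%. With the GC correction the changes were 0.12 for GALNT5, 0.12 for MUC13 and 0.05 for GALNT7, while that of GCNT3 was 0.29. Without shNC replicate 1 GCNT3, GALNT5, MUC13 and B3GNT2 passed (limma adjusted p = 0.0312, 0.0469, 0.0334 and 0.0486), in a fit that called 8.34% of all genes (5.53% higher). B3GNT2 changed by 0.21 in that fit, against 0.09 with all libraries. With both the GC correction and without that library, none of the 18 passed, and the changes were 0.27 for GCNT3, 0.05 for GALNT5, 0.12 for MUC13 and 0.02 for GALNT7. Weighting the libraries by their quality called MUC13, GALNT7, GALNT5, GCNT3, B3GNT2 and GALNT10 higher and GALNT2 and GALNT12 lower, where 28.4% of all genes were called. limma-voom without shNC replicate 1, also chosen after seeing the data, called MUC13, GALNT1, GALNT7, GALNT5, GCNT3 and B3GNT2 higher and GALNT2 lower, where 22.5% of all genes were called (12.8% higher).

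**Figure D4:**
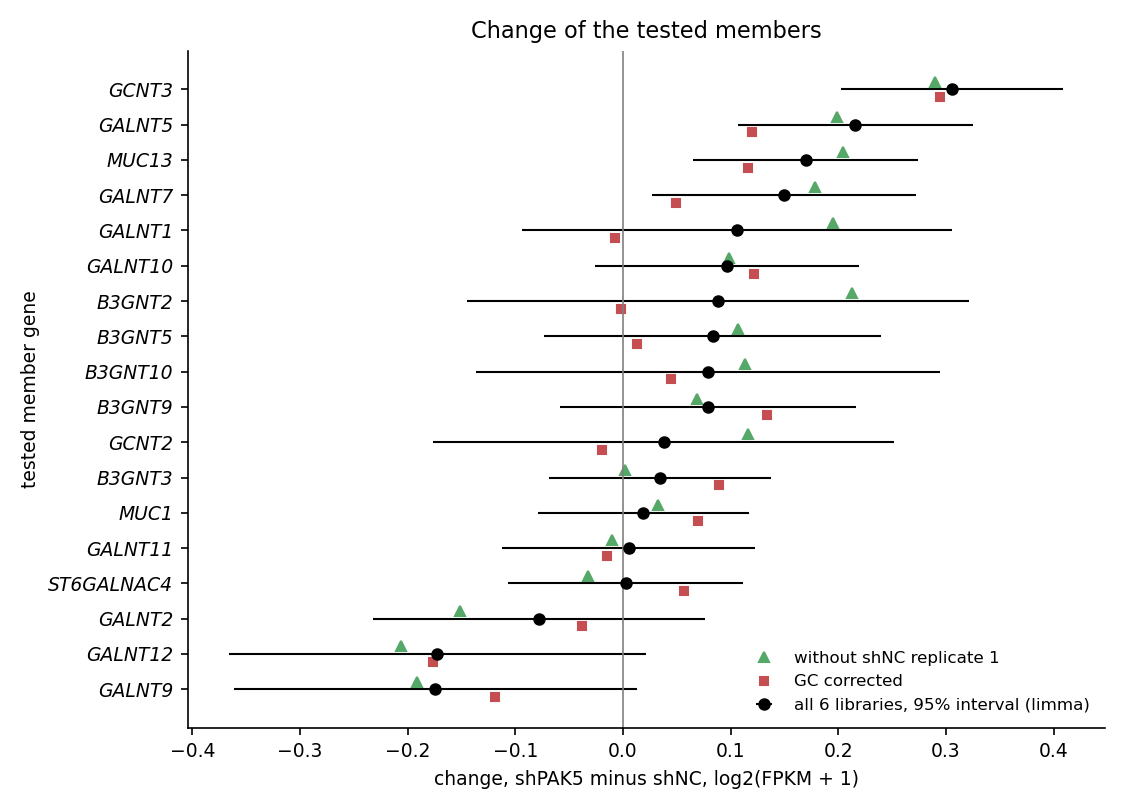
Change of the 18 tested genes, shPAK5 minus shNC, on the log2(FPKM + 1) scale: points and bars give the limma estimate and its 95% interval with all 6 libraries, triangles the estimate without shNC replicate 1, and squares the estimate with the GC correction. GCNT3 stays near 0.3 in all 3, while GALNT7, GALNT1 and B3GNT2 move towards 0 with the GC correction. Others, such as B3GNT3, MUC1, ST6GALNAC4 and B3GNT9, move away from 0 with it.

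The 3 genes with a negative change were GALNT9, with -0.17 ± 0.08 (SE, limma adjusted p = 0.324), GALNT12, with -0.17 ± 0.08 (adjusted p = 0.341), and GALNT2, with -0.08 ± 0.07 (adjusted p = 0.573). The remaining 11 genes had changes from 0.00267 for ST6GALNAC4 to 0.11 for GALNT1, with limma adjusted p from 0.392 to 0.983. The 95% interval of all 18 changes lay within 1.5-fold in either direction in log2(FPKM + 1), where the added 1 shrinks changes of weakly expressed genes.

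Marker levels also differed between the groups. Of the 6 genes of gastrointestinal epithelium, CDH17, GPA33, LGALS4 and VIL1 had all shPAK5 libraries above all shNC libraries, as did 12.6% of all tested genes. CDX2 had means of 0.0426 FPKM in shNC and 0.00891 in shPAK5, with overlap, and CDX1 was at 0. Their summed level was 646 to 649 FPKM in the shNC libraries and 709 to 722 in the shPAK5 libraries. EPCAM, CDH1, ESR1 and PGR, low in the labelled line, summed to 106 to 122 FPKM in shNC and 131 to 136 in shPAK5. Nearly all of this sum was EPCAM, with means of 109 and 128 FPKM. CDH1 had means of 4.64 and 5.84 FPKM, and for both genes all shPAK5 libraries lay above all shNC libraries. ESR1 was at 0.00143 and 0.00603 FPKM, and PGR had no reads. The 10 markers of the line summed to 290.2 to 319 FPKM in shNC and 316 to 320.3 in shPAK5. Of these, 4 (VIM, CD44, AXL and FN1) had all shPAK5 libraries above all shNC libraries, against 12.6% of all tested genes. Another 2 (COL6A1 and SPARC) had all shPAK5 libraries below, against 10.5%. FN1, with means of 0.0319 and 0.0863 FPKM, and SPARC, with 0.174 and 0.0669, lay far below the 1 FPKM of tested genes. The part of these shifts in the members' values was not tested.

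Promoter sequences were taken from RefSeq (GRCh38.p14), as the 250 bases before an annotated start, for the 39 of the 57 genes with an entry. They are shown for 3 of the genes with non-overlapping groups, GCNT3, MUC13 and GALNT7, and for MUC1, as abundant as MUC13 but with overlapping groups. The windows are chr15:59611533-59611782 (plus strand) for GCNT3, chr3:124934752-124935001 (minus) for MUC13, chr4:173168561-173168810 (plus) for GALNT7 and chr1:155192910-155193159 (minus) for MUC1, each printed along its gene's strand. Capitals mark 4 motifs searched on both strands: the TATA motif TATAAA, the CCAAT box, the GC box GGGCGG and GTTAAT, a half-site of HNF1 factors.
GCNT3: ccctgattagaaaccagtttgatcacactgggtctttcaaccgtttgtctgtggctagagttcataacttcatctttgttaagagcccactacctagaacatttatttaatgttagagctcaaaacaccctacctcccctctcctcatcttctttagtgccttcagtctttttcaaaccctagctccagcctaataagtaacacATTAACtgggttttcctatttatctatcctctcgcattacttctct
MUC13: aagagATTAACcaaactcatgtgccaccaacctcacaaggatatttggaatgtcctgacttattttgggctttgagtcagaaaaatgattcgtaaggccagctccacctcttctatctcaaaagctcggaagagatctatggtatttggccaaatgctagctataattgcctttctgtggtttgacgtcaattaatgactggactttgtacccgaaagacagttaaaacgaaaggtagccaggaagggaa
GALNT7: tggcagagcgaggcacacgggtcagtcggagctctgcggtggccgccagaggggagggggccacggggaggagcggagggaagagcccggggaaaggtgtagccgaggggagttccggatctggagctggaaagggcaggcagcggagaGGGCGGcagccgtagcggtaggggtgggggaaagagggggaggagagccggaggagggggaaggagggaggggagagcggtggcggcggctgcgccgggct
MUC1: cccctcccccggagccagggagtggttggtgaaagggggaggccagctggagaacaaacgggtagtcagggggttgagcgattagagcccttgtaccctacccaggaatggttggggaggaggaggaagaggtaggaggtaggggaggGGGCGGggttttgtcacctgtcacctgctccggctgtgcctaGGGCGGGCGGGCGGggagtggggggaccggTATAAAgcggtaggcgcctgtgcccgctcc
The windows of GCNT3 and MUC13 held 1 GTTAAT each, on the opposite strand, and none of the other motifs. GTTAAT was found in 5.20% of 21021 such windows of protein-coding genes. The GALNT7 window held 1 GGGCGG, a motif found in 54.4% of windows. The MUC1 window held 4, of which 3 overlap each other, and 1 TATAAA, found in 8.79% of windows, and no window shown held CCAAT, found in 32.7%. For MUC1, 1 of 2 annotated starts a few bases apart is shown. The starts of GCNT3 and MUC13 used here lie 16908 and 19068 bases inside the gene spans of the table, and which start the cells use is not measured by these values. These matches are letters in a window, not binding sites.

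The same windows differed in CpG content. The ratio of observed to expected CpG was 0.230 in GCNT3 and 0.463 in MUC13, with 2 and 5 CpGs, against 0.817 in GALNT7, with 20. In MUC1 it was 0.496, with 12 CpGs, close to MUC13. GALNT10 and B3GNT5, also with non-overlapping groups, have windows that are not printed, with ratios of 1.11 and 0.865. Both windows held GGGCGG, and that of B3GNT5 also held GTTAAT. Of the 15 tested members with an entry, 10 (66.7%) had a window with a ratio of at least 0.6, against 89.0% of protein-coding genes averaging 1 FPKM or more. The 5 without one were GCNT3, GCNT2, GALNT11, MUC1 and MUC13. Of the 24 members under 1 FPKM with an entry, 11 (45.8%) had such a window, against 46.0% of protein-coding genes under 1 FPKM. These shares are descriptions, without a test.

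Genes that act beside the members were read from 6 lists, with 59 tested genes in all. Of these 1 passed in limma and also in limma-voom: BHLHA15 (MIST1), which drives secretory cell maturation, fell from 7.18 ± 0.306 to 4.09 ± 0.553 FPKM (SD, n = 3; limma adjusted p = 0.0421), with shPAK5 lower in 3 of 3 libraries. Of all tested genes, 0.116% passed in limma and 1.12% in limma-voom. No list gene was called lower in limma without shNC replicate 2, shNC replicate 3 or any 1 of the shPAK5 libraries. BHLHA15 belongs to the list of mucus secretion partners and goblet cell regulators, of which 9 of 22 were tested, 6 of them with a negative change and a median of -0.05. There XBP1, a factor of the unfolded protein response, was at 26.6 ± 0.942 and 24.98 ± 0.629 FPKM, KLF4 at 10.2 ± 1.005 and 10.2 ± 0.572, and AGR2, a disulfide isomerase needed for mucin folding, at 6.998 ± 0.399 and 6.79 ± 0.647.

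Core 1 synthesis and its capping by sialic acid had 5 of 9 genes tested, with 3 positive changes and a median of 0.02. C1GALT1, the galactosyltransferase that makes core 1, was at 6.01 ± 0.993 FPKM in shNC and 7.64 ± 0.314 in shPAK5 (SD, n = 3; limma adjusted p = 0.215), and its chaperone C1GALT1C1 was at 11.7 ± 0.852 and 12.3 ± 0.274. ST3GAL1 and ST3GAL2, which sialylate core 1, were at 11.9 ± 0.890 and 12.01 ± 0.458, and at 6.75 ± 0.765 and 6.60 ± 0.301 FPKM.

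Additions of galactose, fucose, sulfate and blood-group sugars had 10 of 29 genes tested, with 6 positive changes and a median of 0.04. Its most abundant genes were the galactosyltransferases B4GALT5, at 44.4 ± 2.59 and 43.3 ± 0.797 FPKM, B4GALT1, at 36.1 ± 1.49 and 37.4 ± 1.35, B4GALT2, at 15.04 ± 1.38 and 13.1 ± 0.378, and B4GALT3, at 12.9 ± 0.735 and 11.8 ± 0.415 (SD, n = 3). B4GALT3 shares 28.7% of its exonic bases with genes such as PPOX on the other strand, so part of its reads is uncertain without strand information.

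The supply of sugar nucleotides and their Golgi transport was expressed nearly in full: 20 of 21 genes were tested, with 10 positive and 10 negative changes and a median of 0.00289. GNE, which starts sialic acid synthesis, was at 56.9 ± 0.528 FPKM in shNC and 57.4 ± 0.297 in shPAK5, TSTA3, of GDP-fucose synthesis, at 45.8 ± 3.04 and 44.3 ± 1.85, and the GDP-fucose transporter SLC35C1 at 22.3 ± 1.34 and 21.3 ± 1.36 (SD, n = 3).

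Sialomucins and mucin-like proteins without a MUC symbol had 3 of 14 genes tested, with 1 positive change and a median of -0.13. CD164 was at 23.2 ± 3.83 and 28.0 ± 0.773 FPKM, podocalyxin (PODXL) at 22.2 ± 0.388 and 20.1 ± 1.04, and CD55 at 2.61 ± 0.0388 and 2.05 ± 0.344 (SD, n = 3). Genes that remove O-glycans or shed membrane mucins had 12 of 14 tested, with 8 positive changes and a median of 0.02. Among them the protease ADAM9 was at 91.4 ± 3.56 and 92.4 ± 1.89, beta-galactosidase GLB1 at 25.7 ± 0.475 and 24.5 ± 0.411, and the fucosidase FUCA2 at 20.5 ± 1.59 and 22.9 ± 0.595 FPKM. In the 5 lists other than that of BHLHA15, 0 of 50 tested genes passed in limma or in limma-voom. Over all tested genes the shares were 0.116% and 1.12%. With shares this low, 0 of 50 does not set these lists apart from all genes.

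**Figure D5:**
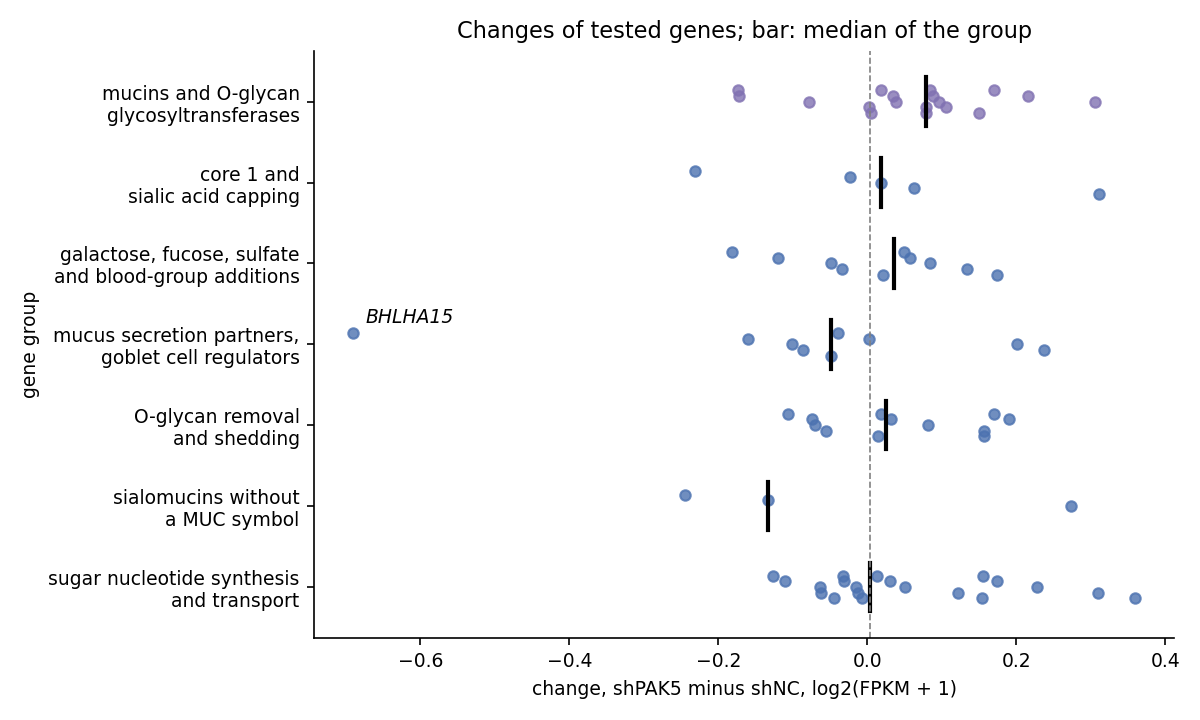
Change of each tested gene, shPAK5 minus shNC, on the log2(FPKM + 1) scale for the mucins and O-glycan glycosyltransferases and for the 6 related lists. Black bars give the median of each group and the dashed line the median of all tested genes, 0.00377; BHLHA15, at -0.69, lies farthest from it.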

How the data were processed

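The authors deposited FPKM per gene for 6 libraries, per the file headers. Libraries were made with an NEBNext Ultra RNA kit, per the labels' protocols. The submitters' processing notes name mm10, but the table held 0 mouse gene IDs, and all 58735 coordinates and exonic lengths matched GENCODE 29 (GRCh38). For the aligner, the counter and the use of strand: not given in the sources used here.

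FPKM times gene length was a whole multiple of 1 step per library, within 0.001 of a read, for 100% of values, which gave the reads. Groups were compared with limma 3.58.1 under R 4.3.3 (eBayes with trend; group as the only term) on log2(FPKM + 1), for genes averaging 1 FPKM or more, Benjamini-Hochberg adjusted at 0.05. limma-voom used the recovered reads with trimmed-mean scaling. Members at or above that mean are named with their values, per library for the 12 most abundant in shNC and any that passed in limma or limma-voom, and by mean and SD for the others. Of each related list up to 4 genes are named, those that passed first, then the most abundant; 2 list genes that this rule names are not reported here. No pair of replicates agreed within sampling noise. Members and lists were chosen with earlier results of these data known. The GC correction subtracted a loess curve (span 0.3) of each library's deviations on transcript GC content. Exact permutation of 3 against 3 libraries cannot go below p = 0.1 and was not used. Scripts were tested on simulated data.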

Additional observations from a re-analysis of the deposited data

How the results depend on the processing

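Over 19 alternatives, 16 of them planned, no member passed in 13. GCNT3 passed in 6; over all 19 its change ran from 0.27 to 0.33 on the log2 scale and its adjusted p from 0.000523 to 0.305. Of the 18 members 10 kept their sign in every alternative run, and 9 passed in none. The matching counts over all genes were not computed. Of all genes, 28.4% passed with array weights, 22.5% in limma-voom without shNC replicate 1 and 8.34% in limma without that library. Members called higher numbered 1 with a mean of at least 5 FPKM, 1 in limma-voom, 1 with the GC correction and 6 with array weights, which also called 2 lower. Leaving out 1 library gave 0 to 4 higher and 0 lower in limma, and 6 higher and 1 lower in limma-voom without shNC replicate 1, a fit chosen after seeing the data, like the GC correction. The median change of the members was 0.00593 without a filter, over 48 genes. Over all genes, 10 higher and 3 lower became 5 and 2 without a filter, 19 and 12 with a mean of at least 5 FPKM, 13 and 7 with quantile normalization, 97 and 29 in limma-voom, 1685 and 1502 with array weights, 44 and 13 with the GC correction, and 10 and 1 without the trend. Leaving out 1 library gave 1 to 621 higher and 1 to 316 lower in limma, and 1434 and 1098 in limma-voom without shNC replicate 1. In the related lists, 59 genes were tested in these fits, or 94 without a filter. There 0 higher and 1 lower became 14 and 6 with array weights, where 28.4% of all genes were called. In limma-voom without shNC replicate 1 they became 11 and 6, where 22.5% of all genes were called. They became 0 lower without a filter, 0 lower without the trend, and 0 to 10 higher and 0 to 2 lower with 1 library left out. The 10 and 2 came without shNC replicate 1, where 8.34% of all genes were called. With the replicate number as a block, 1 gene was higher and 1 lower over all genes, 0 members passed and 0 list genes were lower. Same-numbered libraries had correlations of 0.07, -0.02 and 0.01 between their deviations from the group means. For shNC replicates 1 and 3, but not 2, the same-numbered shPAK5 library was the closest match. These values cannot tell whether the libraries were handled in pairs. The cause of these shifts was not tested. The 30 members with reads below 1 FPKM rest on 1 to 1040 reads over 6 libraries. Depth limits most the 19 of them with 1 to 30 reads. MUC3A, with 521 reads in shNC and 519 in shPAK5, had more than the tested gene B3GNT10, with 155 and 167.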

Other observations

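Some transcripts named after the families lay outside the rule. B3GNTL1, a protein-coding relative by name, was at 1.11 ± 0.121 FPKM in shNC and 0.939 ± 0.0384 in shPAK5 (SD, n = 3), and the groups overlapped. The noncoding gene MUC20-OT1 was at 0.608 ± 0.0514 and 0.615 ± 0.0393 FPKM, above MUC20 itself in every library, and the pseudogene MUC20P1 was at 0.162 ± 0.111 and 0.245 ± 0.144 FPKM. The mucin-like gene MUCL1, known from breast, had no read in any library, and MUCL3 was at 0.0685 ± 0.0275 and 0.0700 ± 0.00759 FPKM.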
